A study of Mus musculus with 35 samples.

Results

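The nuclear genes that encode the mitochondrial respiratory chain and ATP synthase were followed in mouse interscapular brown adipose tissue (iBAT) during cold exposure. Members were protein-coding genes whose symbol begins with Ndufa, Ndufb, Ndufc, Ndufs, Ndufv, Uqcr, Cox4, Cox5, Cox6, Cox7, Cox8 or Atp5, together with Sdha, Sdhb, Sdhc, Sdhd and Cyc1. The rule took 95 of the 55421 identifiers in the count table, carrying 94 symbols. By function, 36 belong to complex I, 4 to complex II, 9 to complex III, 18 to complex IV (Ndufa4 included, which is now placed there) and 17 to complex V. The name rule also took the 8 complex I assembly factors Ndufaf1 to Ndufaf8, and Ndufa4l2, Cox7a2l and Atp5s, which are not fixed subunits of the complex their symbol names. Another 13 identifiers matched a prefix but were pseudogenes or a noncoding RNA (Ndufb1-ps) and were left out. Total tissue RNA came from 35 male C57BL/6J mice aged 9 to 10 weeks. Controls (n = 5) stayed in the colony at 24 °C (room temperature, RT). The other mice were kept at 6 °C for 6 hours or for 1, 2, 3, 4 or 5 days (n = 5 each), in an incubator, alone in static cages without nesting material, so that housing and temperature cannot be told apart. A single iBAT pad per mouse was trimmed of white fat and sequenced as its own library.

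Complex I takes electrons from NADH and complex II takes them from succinate. Ubiquinone carries them to complex III and cytochrome c from there to complex IV, which reduces oxygen. Complexes I, III and IV pump protons out of the mitochondrial matrix, and complex V uses the return flow to make ATP. Brown adipocytes are packed with mitochondria and let protons return through UCP1 instead, so that respiration yields heat. Brown fat is known for a high content of respiratory chain complexes and a low content of ATP synthase. A few subunits come from the mitochondrial genome, and all others, including every member here, from nuclear genes.

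Libraries held between 3846016 and 6047247 counts on genes, and members took 3.62% to 4.89% of them. Mitochondrial transcripts took 33.6% to 46.2% and the nuclear gene Gm42418 up to 16.3%, and both shares varied between mice. Values are therefore given as CPM on TMM-scaled library sizes, and a gene is called higher or lower where the Benjamini-Hochberg adjusted p over all genes tested was below 0.05 in edgeR's quasi-likelihood test. The library kit reads the end of the transcript, so a CPM value does not grow with transcript length. Summed brown adipocyte markers (Ucp1, Cidea and 9 others) were at 13879 to 17508 CPM at RT, at 19644 to 26081 CPM after 6 hours and at 18112 to 22018 CPM after 5 days, without overlap between RT and either. The single markers went both ways. Of the 11 tested, 3 were called higher and 3 lower after 6 hours, and 4 and 3 after 5 days. Their median changes were −0.04 and 0.16 (log2). After 5 days, 5 of 9 pericyte and smooth muscle markers were also called lower and 3 of 5 erythroid markers higher; the part of these in the member changes was not tested. In such bulk RNA, fewer cells of a type and less RNA per cell cannot be told apart. Summed macrophage markers ranged from 52.8 to 122 CPM at RT and from 65.1 to 489.9 CPM after 2 days, and summed skeletal muscle markers from 3.61 to 1348 CPM over all mice. All 6 cold durations were compared with the same 5 controls, so the comparisons are not independent.

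Most members moved little. Of its 95 rows, 90 were tested at 1 or more durations and 73 averaged at least 100 CPM. For 86 of the 90, the largest change at any duration was below 1 on the log2 scale, and for 57 it was below 0.5. After 6 hours, 10 members were higher and 5 lower, that is 11.1% and 5.56% of those tested, against 21.5% and 21% of all genes tested. After 1 day, 12 were higher and 9 lower (18.9% and 17.8% of all genes). After 2 days, the counts were 16 and 5 (16.4% and 14.7% of all genes). The higher count at 2 days was held down by a single library. It rose to 29 without 2-day mouse 1, a fit for which the share of all genes is not given here. With all 7 groups in 1 fit, it was 24 of 91 (26.4%, beside 17% of all genes). After 3 days, the counts were 16 and 14 (18.3% and 15.5%). After 4 days, 30 members were higher and 10 lower, 33.3% and 11.1% of those tested against 19.4% and 18.6% of all genes. After 5 days, 33 were higher and 7 lower, 36.7% and 7.78% against 20.2% and 18.6%. The median member change was 0.03, −0.02, 0.06, −0.03, 0.11 and 0.22 (log2) from 6 hours to 5 days. A total of 58 members were called at some duration, 32 at none and 0 in both directions. The matching shares of all genes are not given here, and these 3 counts are not read as particular to the members.

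These counts depend on how libraries are scaled. With library size only, without TMM factors, the median change of all genes shifted to between −0.25 and −0.15, and the member counts became 1 higher and 27 lower after 6 hours, 6 and 35 after 1 day, 8 and 30 after 2 days, 9 and 29 after 3 days, 20 and 16 after 4 days, and 15 and 16 after 5 days. Under that scaling, 12.7% of all genes were called higher and 32.1% lower after 6 hours, 10.7% and 30.2% after 1 day, 8.76% and 26.1% after 2 days, 12.4% and 22.4% after 3 days, 13% and 24.2% after 4 days, and 11.1% and 31.2% after 5 days. Over all 7 groups in 1 fit, 55 of 91 members differed somewhere in the course, beside 60.4% of 12077 genes. By complex these were 25 of 36 in complex I, 2 of 4 in II, 9 of 9 in III, 7 of 15 in IV and 7 of 16 in V. The highest group mean of those 55 fell at 5 days for 31, at RT for 10, at 6 hours for 5, at 2 days for 5, at 4 days for 3 and at 1 day for 1.

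**Figure D1:**
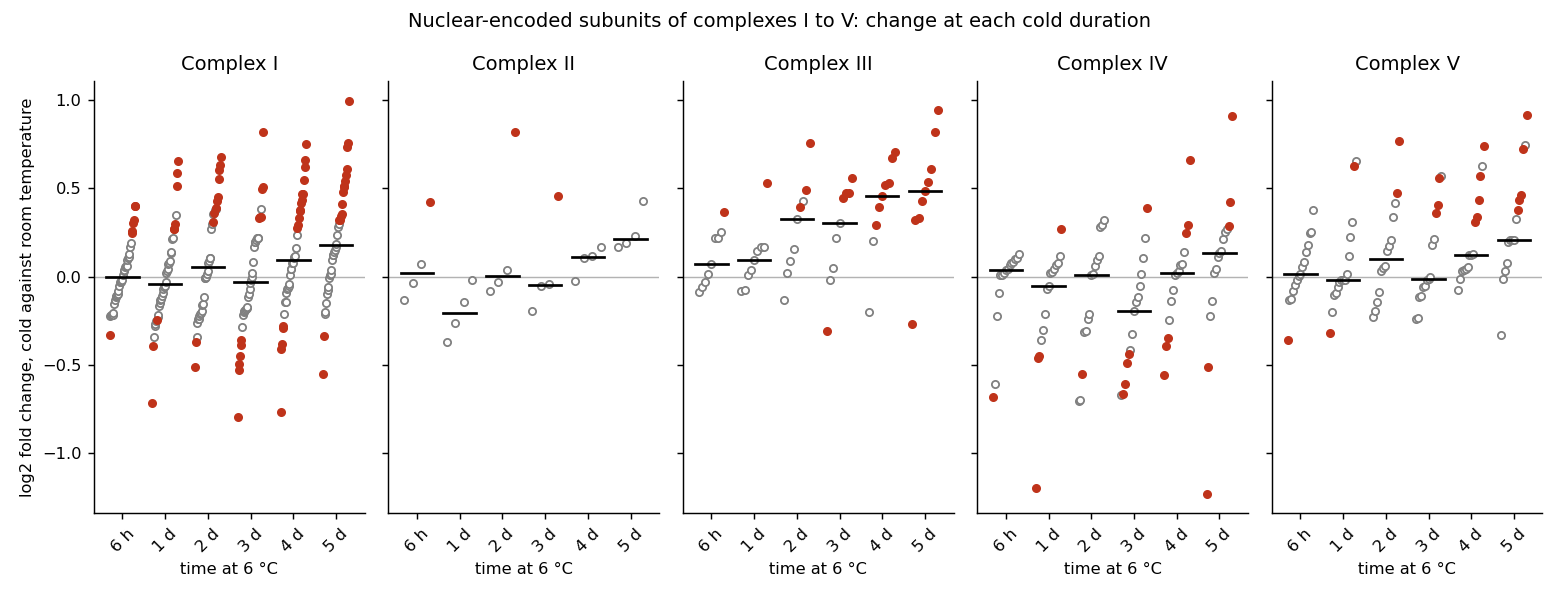
Change of every tested subunit of complexes I to V at each cold duration (log2 fold change against RT on the vertical axis, time at 6 °C on the horizontal axis). Each point is a gene, filled red where the adjusted p was below 0.05, and the bar is the median of the complex. The complex III median rises to 0.48 at 5 days, with 8 of 9 subunits called higher, while the medians of the other complexes stay between −0.20 and 0.21.

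Complex III, ubiquinol-cytochrome c reductase, gained the most at the late durations. Of its 9 members, 7 were higher and 0 lower after 4 days, and 8 were higher and 1 lower after 5 days, with medians of 0.46 and 0.48 (log2). Over all genes tested, 19.4% were higher and 18.6% lower after 4 days, and 20.2% and 18.6% after 5 days. After 6 hours and 1 day a single member, Uqcrh, was called, and the medians were 0.07 and 0.09. With library size only, the complex III median was 0.08, 0.16, 0.32 and 0.25 at 2, 3, 4 and 5 days, the 5-day call counts fell to 4 higher and 1 lower, and the 6-hour and 1-day medians turned to −0.12 and −0.13. Under the same scaling the 5-day medians of complexes I, II, IV and V lay between −0.11 and −0.03.

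Uqcrfs1 (ENSMUSG00000038462, chr13:30540308-30545362 of GRCm38, minus strand) encodes the Rieske iron-sulfur protein, which passes electrons from ubiquinol to cytochrome c1, and had the largest rise of the complex after 5 days. It stood at 335, 413, 324, 258 and 301 CPM in the RT mice and at 504, 579, 690.1, 719 and 649 CPM in the 5-day mice. Every 5-day mouse was above every control. The change was 0.94 ± 0.13 (log2, SE; edgeR adjusted p = 1.54e-05), or 1.92-fold. At 6 hours and 1 day its means of 394 ± 89.1 and 366 ± 49.3 CPM (SD, n = 5) did not pass the test, and the 5-day mice exceeded the 6-hour mice by 0.69 (log2, edgeR adjusted p = 0.000418).

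Uqcrc2, Uqcrc1, Uqcrb, Uqcrq, Uqcr10 and Cyc1 were picked after their values were seen. Uqcrc2, a structural core subunit, was at 633, 539.6, 625, 540.4 and 552 CPM at RT and at 768, 983, 1139.9, 1184 and 1045 CPM after 5 days. The groups did not overlap, with a change of 0.82 ± 0.12 (log2, SE; edgeR adjusted p = 2.67e-05); reads of the neighbouring gene Pdzd9, whose exons overlap it on the opposite strand, cannot be told apart where strand was not used in counting. Its partner Uqcrc1 rose by 0.54 (adjusted p = 0.000947 in edgeR), Uqcrb by 0.61 (0.000436), Uqcrq by 0.43 (0.00787) and Uqcr10 by 0.32 (0.032). Of the 76-base windows in the last 300 bases of Uqcrb transcripts, the length of a read, 33.8% also occur in other genes, and the Uqcr10 call was lost in 5 of the 10 fits without 1 mouse. Cyc1, cytochrome c1, was called from 2 days on and was higher by 0.52 after 4 days and 0.33 after 5 days.

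Uqcrh (ENSMUSG00000063882, chr4:116066965-116075071, minus strand), the hinge protein between cytochrome c1 and cytochrome c, had the highest mean CPM of the complex over all 35 mice, though not at RT, where Uqcrq averaged 1135 CPM against 1111 CPM, and was its only member called after 6 hours and 1 day. Its RT values were 1254, 1023, 1219, 1104 and 957 CPM, and its 6-hour values were 1382, 1412, 1538, 1602 and 1322 CPM. After 2 days it reached 1393, 1770.1, 2139.9, 2192 and 1959.5 CPM. No cold-exposed mouse at any of the 6 durations overlapped the controls, and the gene was called higher at all of them, with changes of 0.37 after 6 hours, 0.76 after 2 days and 0.48 after 5 days (log2; edgeR adjusted p = 0.00547, 0.000572 and 0.00438). With library size only, the 6-hour and 5-day calls were lost (adjusted p = 0.118 and 0.0722).

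Uqcr11, a small subunit added late to the complex, was the exception. It was at 495, 464, 529.9, 456 and 439 CPM at RT and at 375, 399.8, 440.2, 427 and 346 CPM after 5 days. The groups overlapped in a single 5-day mouse, and the change was −0.27 ± 0.10 (log2, SE; edgeR adjusted p = 0.0379). The call was lost in 6 of the 10 fits without 1 mouse, with adjusted p up to 0.119, and a similar drop of 0.31 after 3 days was lost in 7 of 10.

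The promoters of Uqcrfs1, Uqcrh and Uqcr11 are shown because these subunits rose late, rose at once and fell, respectively. They are RefSeq sequences (build GRCm38.p6), all genes lie on the minus strand, positions count from the RefSeq start, and capitals mark a match to the CREB letters TGACGTCA or the GABP letters CCGGAAGT on either strand. The Uqcrfs1 match lies 29 to 22 bases before that start (chr13:30545338-30545436), the Uqcrh match 11 to 4 bases before it (chr4:116075071-116075190) and the Uqcr11 match 66 to 59 bases before it (chr10:80406822-80406941). The GENCODE start printed with the gene lies further upstream, by 46 bases for Uqcrfs1, 9 for Uqcr11 and 1 for Uqcrh, so that the Uqcrfs1 match lies inside the GENCODE transcript. The GABP letters stand in the Uqcrh and Uqcr11 promoters shown. The part of these letters, or of the CREB letters, in the changes was not tested.
Uqcrfs1: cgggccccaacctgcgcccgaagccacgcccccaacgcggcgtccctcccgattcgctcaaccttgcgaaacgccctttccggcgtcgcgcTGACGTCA
Uqcrh: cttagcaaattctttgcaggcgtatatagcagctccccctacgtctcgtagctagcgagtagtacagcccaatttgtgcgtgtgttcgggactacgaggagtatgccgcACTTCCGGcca
Uqcr11: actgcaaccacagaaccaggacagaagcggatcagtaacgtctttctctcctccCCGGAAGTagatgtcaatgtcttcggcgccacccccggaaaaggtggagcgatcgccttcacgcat

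**Figure D2:**
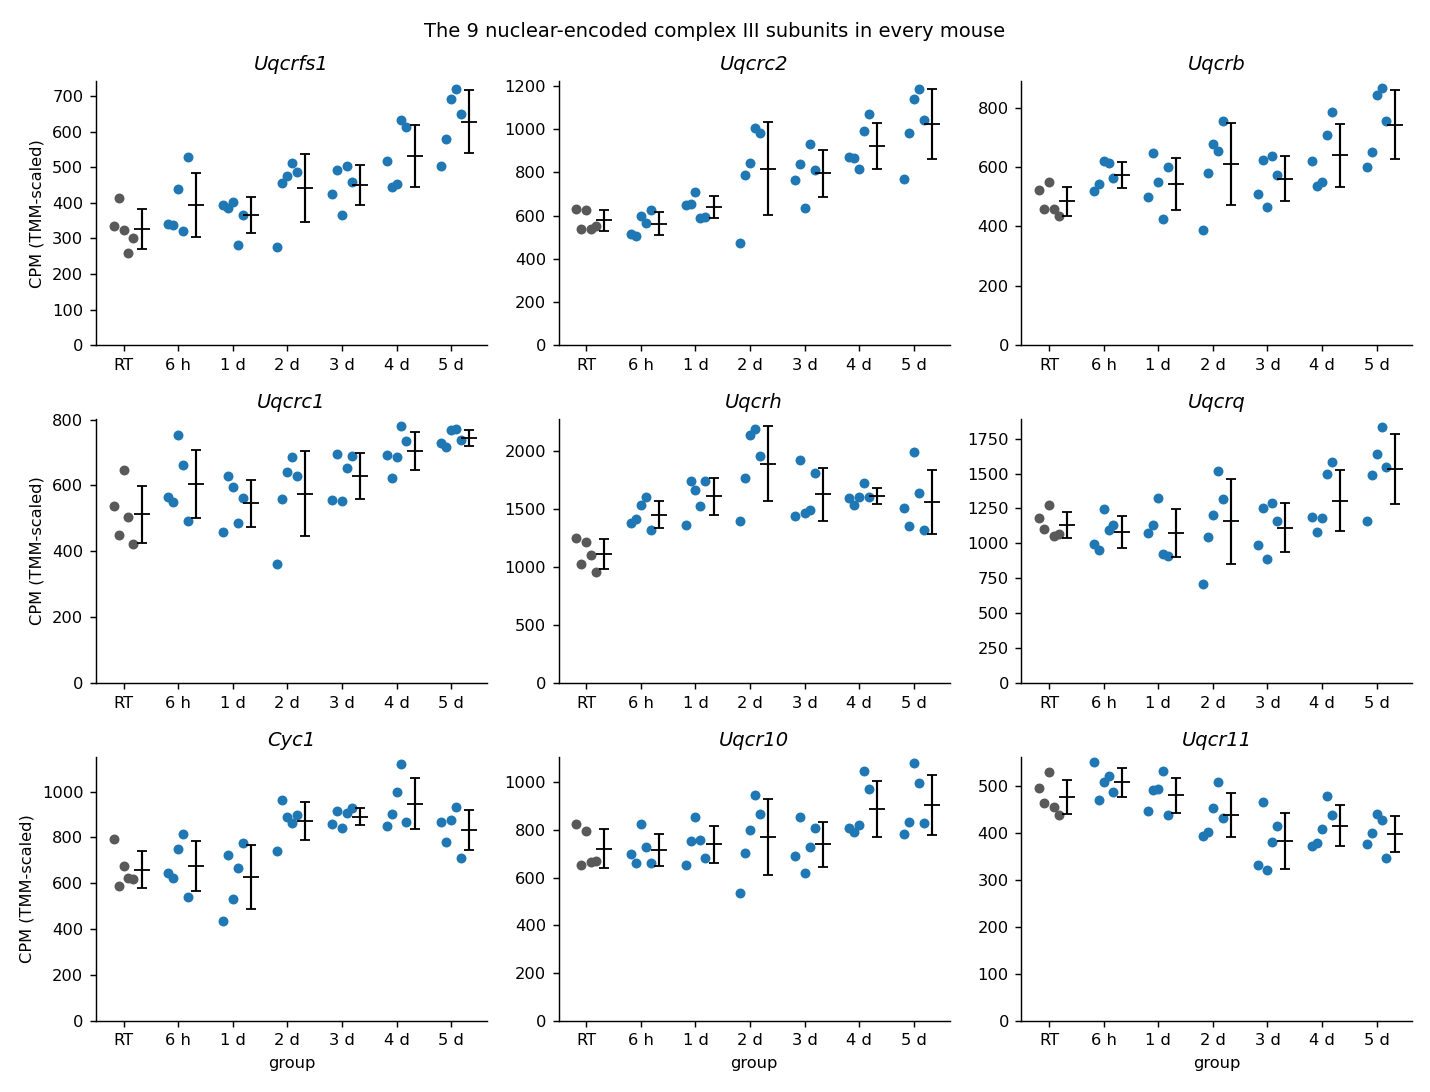
CPM of the 9 complex III genes in every mouse (points), with mean ± SD of each group of 5 (bars), against time at 6 °C. RT mice are grey. Uqcrfs1 climbs from a mean of 326 CPM at RT to 628 CPM at 5 days, Uqcrh is above all controls from 6 hours on, and Uqcr11 declines from 477 to 398 CPM.

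Complex IV, cytochrome c oxidase, did not move as a block. Of the 15 members tested, 0 were higher and 1 lower after 6 hours, 1 and 4 after 3 days, and 3 and 2 after 5 days. The medians at these times were 0.04, −0.20 and 0.14 (log2). The shares of all genes called higher and lower were 21.5% and 21%, 18.3% and 15.5%, and 20.2% and 18.6%. Cox4i1 and Cox5a, subunits present in every tissue, were called at no duration, nor was Cox6a1, which had the highest CPM of the complex (1776 ± 85.5 at RT and 1835 ± 240.1 after 5 days; SD, n = 5). With library size only, Cox6a1 was called lower after 2 days (−0.23 on the log2 scale, edgeR adjusted p = 0.0487, against 0.01 with TMM factors) and after 3 days (−0.34). Several of its subunits exist as tissue-restricted and general isoforms.

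Cox7a1 (ENSMUSG00000074218, chr7:30184144-30186078, plus strand), the isoform of subunit VIIa found in heart, muscle and brown fat, rose late. Its RT values were 588, 615, 507, 518 and 505 CPM, and its 5-day values were 793, 917, 1088, 1259 and 1089 CPM. All 5-day mice were above all controls (0.91 ± 0.12 on the log2 scale, SE; edgeR adjusted p = 1.39e-05), whereas the 6-hour and 1-day means of 558 ± 81.2 and 521 ± 59.0 CPM (SD, n = 5) did not pass the test. The general isoform Cox7a2 changed less, from 926 ± 79.1 CPM at RT to 1133 ± 115 CPM after 5 days (0.29, edgeR adjusted p = 0.0334), and that call was lost in 6 of the 10 fits without 1 mouse and with library size only. The log2 ratio of Cox7a1 to Cox7a2 within each mouse, which does not depend on scaling, was −0.76 ± 0.18 at RT and −0.15 ± 0.19 after 5 days (SD, n = 5). It was higher in 5 of 5 mice than in any control, but the exact two-sided permutation p of 0.00794, the smallest that 5 against 5 mice allow, became 0.190 after adjustment over the 24 ratios tested. None of those 24 passed.

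Cox8b (ENSMUSG00000025488, chr7:140898945-140900446, minus strand), the muscle and brown fat isoform of subunit VIII, fell for a few days and then returned. It was at 1347, 1218, 1399, 1219 and 1194 CPM at RT and at 844, 949, 1172, 867 and 802 CPM after 1 day. After 2 days the values spread widely, at 445, 735, 955, 1239 and 1016 CPM. The 1-day mice were all below the controls (−0.46 ± 0.11 on the log2 scale, SE; edgeR adjusted p = 0.00436), and also below the 6-hour mice (−0.51, adjusted p = 0.00567 in edgeR). The drop of 0.55 after 2 days passed (edgeR adjusted p = 0.045) but was lost in 8 of the 10 fits without 1 mouse, the drop of 0.44 after 3 days passed at 0.0128, and after 4 and 5 days the gene did not pass the test, with means of 1213 ± 196 and 1407 ± 246 CPM (SD, n = 5). Its general isoform Cox8a was lower after 3 and 4 days (−0.61 and −0.39, edgeR adjusted p = 0.00372 and 0.0369), the latter lost in 5 of 10 fits without 1 mouse.

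**Figure D3:**
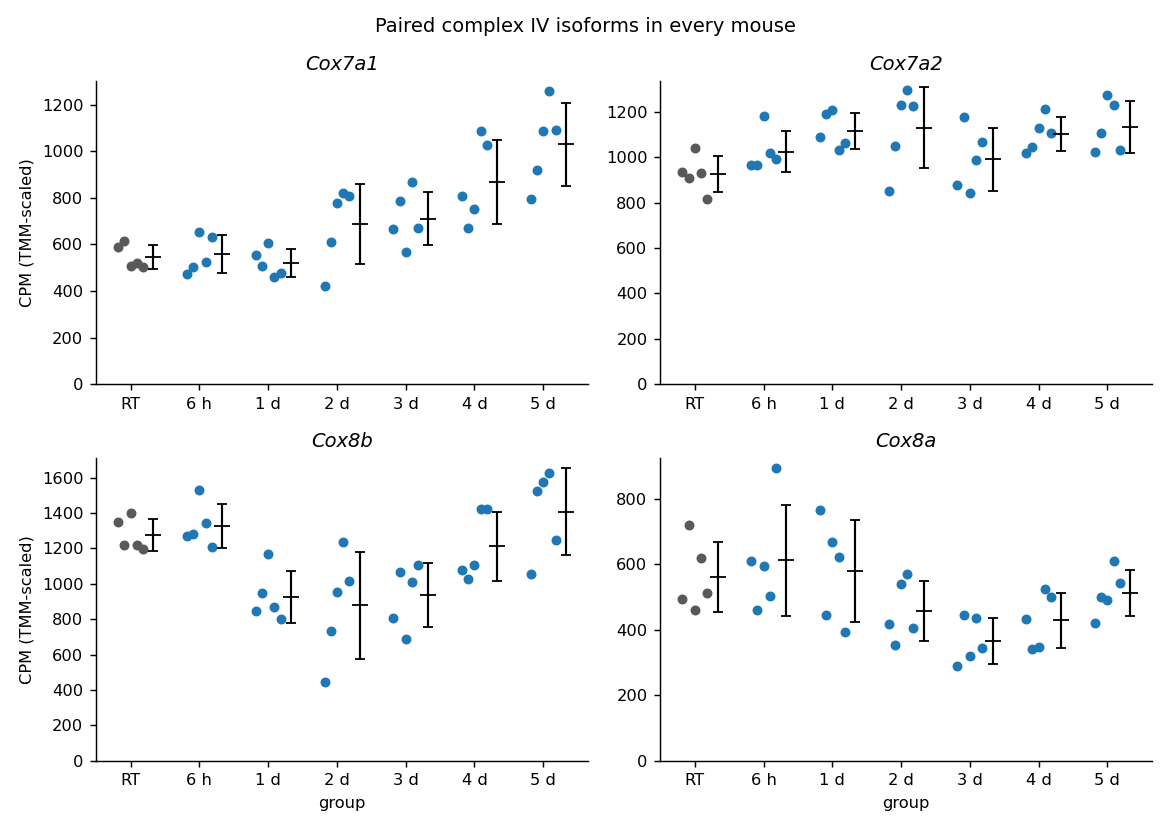
CPM of 2 isoform pairs of complex IV, Cox7a1 with Cox7a2 and Cox8b with Cox8a, in every mouse (points), with mean ± SD of each group of 5 (bars), against time at 6 °C. Cox7a1 reaches 1029 CPM at 5 days from 547 CPM at RT, and Cox8b dips to 878 CPM at 2 days from 1275 CPM and returns.

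Further complex IV genes were lower late in the course. Ndufa4, once assigned to complex I, was at 433, 465, 395, 372 and 437 CPM at RT and at 260.2, 239, 359, 351 and 271 CPM after 5 days, without overlap (−0.51 ± 0.12 on the log2 scale, SE; edgeR adjusted p = 0.00259). It was also called lower after 1, 3 and 4 days. Cox6c was lower after 3 and 4 days (−0.49 and −0.35, edgeR adjusted p = 0.00305 and 0.00432), with 28.1% of its read-length windows shared with Cox6c2. Cox6b2, a testis-type isoform, was near the limit of detection at 5.53 ± 1.17 CPM at RT (SD, n = 5), and lower after 6 hours and 1 day (−0.68 and −1.20, edgeR adjusted p = 0.0232 and 0.00192). Cox4i2, Cox7b2 and Cox8c did not pass the filter on low counts in any comparison.

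Cox6a2, the heart and skeletal muscle isoform of subunit VIa, varied with muscle RNA in the libraries. It was at 19.9, 1.36, 19.4, 15.0 and 7.64 CPM at RT and at 4.52, 7.18, 3.28, 5.71 and 6.19 CPM after 5 days. The groups overlapped, and the 5-day call (−1.23 on the log2 scale, edgeR adjusted p = 0.0289) was lost in 6 of the 10 fits without 1 mouse, with adjusted p up to 0.0821. Across the 35 mice, log2 Cox6a2 followed the summed skeletal muscle markers (Pearson's r = 0.934, Spearman's rho = 0.912, each with a permutation p of 1e-05, the smallest that 100000 permutations can give, and 6e-05 adjusted over 6 relations). The correlation was 0.936 within durations and 0.921 without the 2 mice farthest from the median. In the same 5-day comparison, 5 of 11 muscle markers were called lower, and summed muscle markers ranged from 90.0 to 1172 CPM at RT and from 192 to 320.4 CPM after 5 days. Cox7a1 and Cox8b showed no such relation (r = −0.08 and −0.01, permutation p = 0.638 and 0.934).

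Both brown fat isoforms were instead lower in mice with more macrophage RNA at the same duration. Within durations, r with the summed macrophage markers was −0.699 for Cox7a1 (permutation p = 0.00054, 0.00108 adjusted over 6 relations; rho = −0.632) and −0.787 for Cox8b (permutation p = 3e-05, 9e-05 adjusted; rho = −0.818). Without the 2 farthest mice these were −0.592 and −0.740. Over all 35 mice the values were 0.18 for Cox7a1 (permutation p = 0.299; rho = 0.248, p = 0.151) and −0.485 for Cox8b (permutation p = 0.00265, 0.00795 adjusted; rho = −0.400, 0.0537 adjusted). After 2 days, for instance, the macrophage sums were 489.9, 275, 65.1, 65.8 and 97.7 CPM in mice 1 to 5, and Cox7a1 was at 421, 608, 777, 820.3 and 809 CPM. The mouse with the most macrophage RNA had the lowest value of both isoforms. The summed complex I members were lowest in the same mouse, at 9776 CPM against 12084 to 14615 CPM in the other 2-day mice. The general isoform Cox7a2 was lowest there too, at 854 CPM. Relations to the markers were computed for Cox6a2, Cox7a1 and Cox8b only, so nothing particular to the brown fat isoforms is read from them. All levels share the same CPM scale, so that more RNA of some genes lowers the share of the rest, and the part of this in the result was not tested. After 2, 3, 4 and 5 days, 3 of 6, 5 of 7, 4 of 7 and 4 of 7 macrophage markers tested were called higher than at RT, and 0 were called lower.

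**Figure D4:**
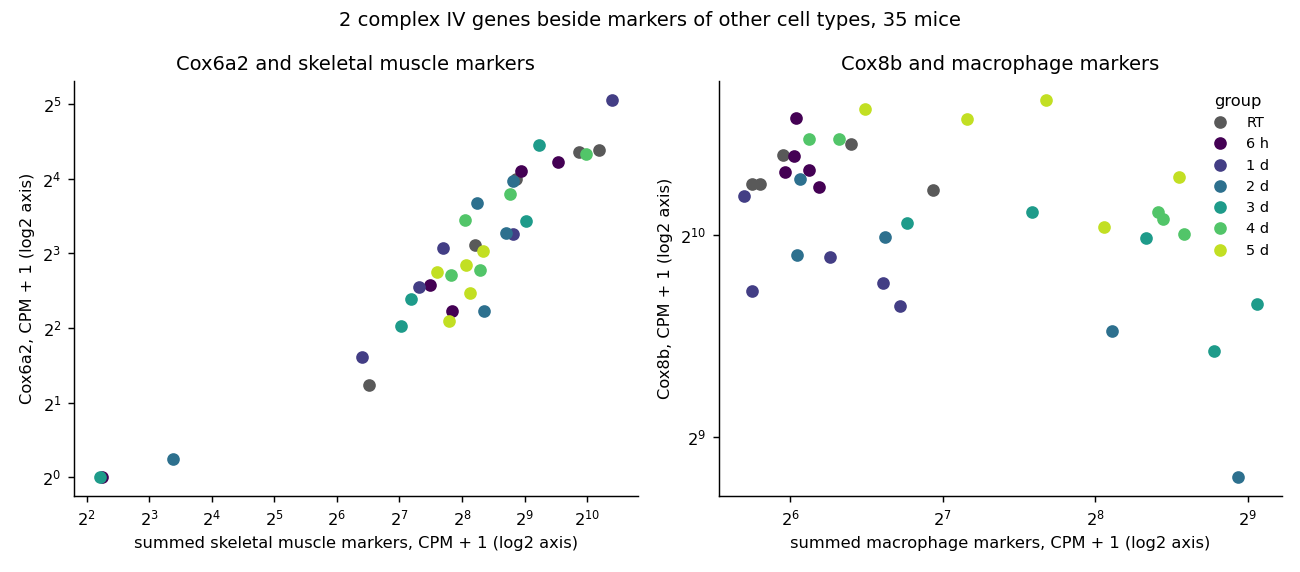
Left, Cox6a2 against summed skeletal muscle markers, and right, Cox8b against summed macrophage markers, in each of the 35 mice, coloured by duration (both axes in CPM + 1 on a log2 scale). Cox6a2 rises with the muscle markers (r = 0.934), and Cox8b is lower at high macrophage levels (r = −0.485 over all mice and −0.787 within durations).

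Complex I, NADH:ubiquinone oxidoreductase, held calls in both directions. Of 36 members, 6 were higher and 1 lower after 6 hours, 6 and 6 after 3 days, 13 and 5 after 4 days, and 14 and 2 after 5 days, with medians of −0.01, −0.03, 0.09 and 0.18 (log2). At 3 days these were 16.7% of its members each way, beside 18.3% and 15.5% of all genes. The shares of all genes were 21.5% and 21% after 6 hours, 19.4% and 18.6% after 4 days, and 20.2% and 18.6% after 5 days. Ndufv1, Ndufs1 and Ndufs7, which hold the flavin and iron-sulfur clusters on the electron path, were called at no duration, while Ndufv2 and Ndufs8 were higher after 4 days (0.37 and 0.28) and 5 days (0.51 and 0.34).

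Among accessory subunits, Ndufs4, needed for the last steps of complex I assembly, was at 257, 206, 249.9, 216 and 214 CPM at RT and at 314, 376, 403, 444 and 370.0 CPM after 5 days. The groups did not overlap (0.73 ± 0.11 on the log2 scale, SE; edgeR adjusted p = 3.62e-05); this gene and Ndufa11 were picked after their values were seen. Ndufa12, bound close to Ndufs4 in the complex, was called higher at all 6 durations and stood above all controls after 1, 2, 4 and 5 days, at 387, 469, 462, 392 and 405 CPM after 1 day against 271, 218, 336, 281 and 236 CPM at RT (0.66 ± 0.12, edgeR adjusted p = 0.000397). Its transcript end shares 25.1% of read-length windows with Gm15920, and its 6-hour call was lost with library size only (adjusted p = 0.316). Ndufa11, a membrane arm subunit, was also higher at all 6 durations, by 0.26 to 0.63. Ndufs5 had the largest 5-day change of the complex, from 18.4 ± 2.49 CPM at RT to 36.7 ± 7.43 CPM (SD, n = 5; 1.00 on the log2 scale, edgeR adjusted p = 3.84e-05), but 37.5% of its windows also occur in BC002163.

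Against these, Ndufb3, a small membrane arm subunit, was lower from 1 day on. It was at 418, 547, 328, 394 and 445 CPM at RT, at 294, 258, 305, 228 and 216 CPM after 1 day and at 262, 291, 298.7, 333 and 275 CPM after 5 days. All 1-day mice were below all controls and a single 5-day mouse reached their range (−0.71 ± 0.14 and −0.55 ± 0.12 on the log2 scale, SE; edgeR adjusted p = 0.000681 and 0.00175). Ndufc2, another membrane arm subunit, lay between 461 and 476 CPM at RT and between 289 and 381 CPM after 3 days, without overlap, and was called lower after 3, 4 and 5 days (−0.53, −0.41 and −0.34, edgeR adjusted p = 0.000389, 0.000655 and 0.0216). Ndufa10 (2 to 4 days), Ndufb8 (3 and 4 days), Ndufb11 (1, 3 and 4 days), Ndufa7 (1 day) and Ndufa13 (3 days) were also lower. The Ndufb11 calls were lost in 8 of the 10 fits without 1 mouse at 1 day and in 5 at 4 days. Those of Ndufa10 at 2 days and Ndufb8 at 4 days were lost in 6 and 5 of 10. Ndufb8 had the highest CPM of the complex, 1085 ± 71.8 at RT and 824 ± 68.5 after 3 days (SD, n = 5; −0.39 on the log2 scale, edgeR adjusted p = 0.0047). Ndufs3, a core subunit of the matrix arm, was lower after 6 hours (−0.33, edgeR adjusted p = 0.0187) and not called later, and 47.6% of its windows are shared with Gm12251.

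Complex II, succinate dehydrogenase, had calls against RT in 1 subunit only. Its flavoprotein Sdha, iron-sulfur protein Sdhb and membrane anchor Sdhc were called at no duration against RT. Sdhb, with the highest CPM, went from 1018 ± 51.7 CPM at RT to 1199.7 ± 139.6 CPM after 5 days (SD, n = 5; 0.23 on the log2 scale, edgeR adjusted p = 0.0838). The membrane anchor Sdhd was at 195, 164, 117, 122 and 193 CPM at RT, at 177, 210.1, 285, 217 and 186 CPM after 6 hours and at 248, 306, 285, 262 and 307 CPM after 2 days. Only the 2-day mice were all above the controls (0.82 ± 0.15 on the log2 scale, SE; edgeR adjusted p = 0.000635), and the calls after 6 hours and 3 days (0.42 and 0.45, adjusted p = 0.0351 and 0.0192 in edgeR) were lost in 4 of 10 and 1 of 10 fits without 1 mouse. After 1 day, Sdhd was at 26.4 CPM in mouse 4 and between 121 and 188 CPM in the others.

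Complex V, ATP synthase, rose in part. Of 15 members tested after 5 days, 5 were higher and 0 lower, with a median of 0.21 (log2). The same counts held after 4 days with a median of 0.12. Over all genes tested, 20.2% were higher and 18.6% lower after 5 days, and 19.4% and 18.6% after 4 days. Atp5mpl, a small subunit of the membrane part, had the largest 5-day change that passed the test. It was at 313, 291, 324, 234 and 259 CPM at RT, at 405, 516, 453, 399 and 416 CPM after 1 day and at 377, 533, 607, 662 and 505 CPM after 5 days. Both cold groups lay above all controls (0.62 ± 0.11 and 0.91 ± 0.14 on the log2 scale, SE; edgeR adjusted p = 0.000375 and 4.04e-05).

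The catalytic subunit Atp5b, the highest of the complex in CPM, was at 1599, 1622, 1896, 1615 and 1633 CPM at RT and at 1997, 2061, 2286, 2452 and 2105 CPM after 5 days. The groups did not overlap (0.38 ± 0.10 on the log2 scale, SE; edgeR adjusted p = 0.00693), though not with library size only (0.14, adjusted p = 0.226 in edgeR). Its partner Atp5a1 was called at no duration. Atp5f1, a peripheral stalk subunit, rose by 0.72 after 5 days (edgeR adjusted p = 0.000286) and has exons overlapping Wdr77 on the opposite strand, and Atp5e, of the central stalk, rose by 0.44 (0.00713). Early falls were seen for Atp5g3, a copy of the membrane ring subunit c, after 6 hours (292 ± 31.2 against 369 ± 21.6 CPM, SD, n = 5; −0.36 on the log2 scale, edgeR adjusted p = 0.00471) and for Atp5c1, the central stalk subunit gamma, after 1 day (245 ± 16.3 against 305 ± 20.3 CPM; −0.32, adjusted p = 0.0129 in edgeR). Atp5g1 was called at no duration and not tested after 2 days. Atp5g2 and a second Atp5o identifier did not pass the filter in any comparison. The inhibitor Atp5if1 is not among the members by its name in this table.

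Of the assembly factors, Ndufaf4 (ENSMUSG00000028261, chr4:24898083-24905001, plus strand) had the largest 5-day rise of any member tested; it was picked after its values were seen. It was at 80.5, 66.0, 74.6, 66.1 and 63.1 CPM at RT, at 146, 139.9, 146, 151 and 146 CPM after 6 hours and at 145, 150.4, 175, 136 and 148 CPM after 5 days. No mouse of any cold duration overlapped the controls, and the change was between 0.93 and 1.10 on the log2 scale at all 6 durations (edgeR adjusted p = 1.07e-07 after 6 hours and 2.38e-07 after 5 days). The 5-day and 6-hour mice differed by 0.06 (adjusted p = 0.625 in edgeR). Ndufaf1 was higher after 6 hours, 1 day and 5 days (0.41, 0.37 and 0.51), Ndufaf7 after 1 and 4 days, Ndufaf6 after 5 days, and Ndufaf3 lower after 3 and 4 days (−0.49 and −0.50). The Ndufaf4 promoter, shown for the change of this gene, lies at chr4:24897963-24898082 on the plus strand (RefSeq, GRCm38.p6). It holds the NRF1 motif, in capitals, 113 to 104 bases before the start. That motif stood in 19 of 74 member promoters, and its part in the change was not tested.
Ndufaf4: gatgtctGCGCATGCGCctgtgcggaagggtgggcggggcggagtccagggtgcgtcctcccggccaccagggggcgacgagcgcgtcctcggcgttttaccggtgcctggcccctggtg

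Cox7a2l was the only member called lower at all 6 durations. It was at 59.2, 61.7, 75.1, 68.3 and 59.1 CPM at RT, at 54.1, 46.1, 49.99, 48.0 and 34.2 CPM after 6 hours and at 43.7, 44.2, 53.5, 51.2 and 38.9 CPM after 5 days. No cold-exposed mouse reached the lowest control, and the change was between −0.57 and −0.35 (log2; edgeR adjusted p = 0.00289 after 6 hours and 0.00222 after 5 days). The 2-day call was lost in 2 of the 10 fits without 1 mouse. Atp5s, with 6.69 ± 1.46 CPM at RT (SD, n = 5), was lower at 5 durations, by 1.49 on the log2 scale after 1 day (−1.49, edgeR adjusted p = 0.00225). Its 3-day call was lost in 6 and its 5-day call in 9 of the 10 fits without 1 mouse. Ndufa4l2, at 3.99 ± 0.742 CPM at RT, was called at none.

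The cold durations were also compared directly. Between 6 hours and 1 day, 3 members were higher and 4 lower at 1 day, against 9.19% and 7.75% of all genes. Between 6 hours and 5 days, 30 were higher and 3 lower at 5 days. These were 33.3% and 3.33% of those tested, against 19% and 16.9% of all genes. With library size only the counts were 24 and 5, beside 16.1% and 18% of all genes. With TMM factors, complex III held 7 higher and 1 lower of 9, complex V 6 and 0 of 15 and complex I 12 and 1 of 36. Ndufb4, a membrane arm subunit of complex I picked after its values were seen, differed most, by 0.98 ± 0.13 (log2, SE; edgeR adjusted p = 5.04e-06).

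Genes that act on the chain from outside the module were read from lists of the pathway. Their counts stand beside 21.5% higher and 21% lower of all genes after 6 hours and 20.2% and 18.6% after 5 days, and nothing particular to a list is read from a count near these shares. The transcriptional coactivator Ppargc1a, which drives mitochondrial biogenesis, was at 60.0, 86.1, 65.7, 46.5 and 45.9 CPM at RT and at 411, 879.7, 678, 805 and 1008 CPM after 6 hours. The 5-day mice still had 248, 215, 226, 169 and 334 CPM. All of these were above all controls (3.62 after 6 hours and 1.97 after 5 days on the log2 scale, edgeR adjusted p = 1.19e-09 and 2.09e-07). Its nuclear receptor partner Esrra was higher at all durations, by 0.41 to 0.78, and Polrmt, the mitochondrial RNA polymerase, by 0.36 to 0.82. Of 11 transcriptional regulators tested, 4 were higher and 1 lower after 6 hours and 4 and 1 after 5 days. The lower gene was Ppargc1b after 5 days (−0.46). Tfam was called at no duration.

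Cycs, the mobile electron carrier cytochrome c, was higher at all 6 durations. It was at 181, 159.9, 191, 155 and 164 CPM at RT, at 258, 256, 277, 302 and 251.2 CPM after 6 hours and at 280.5, 343, 349, 341 and 299.7 CPM after 5 days. The lowest cold value at any duration was above the highest control, with changes of 0.64 to 0.92 (log2). Of the 7 electron carriers and donors, 2 were higher and 1 lower after 6 hours, and 3 and 3 after 5 days. Sqor, sulfide quinone oxidoreductase, fell by 1.59 after 1 day and by 0.90 after 5 days.

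**Figure D5:**
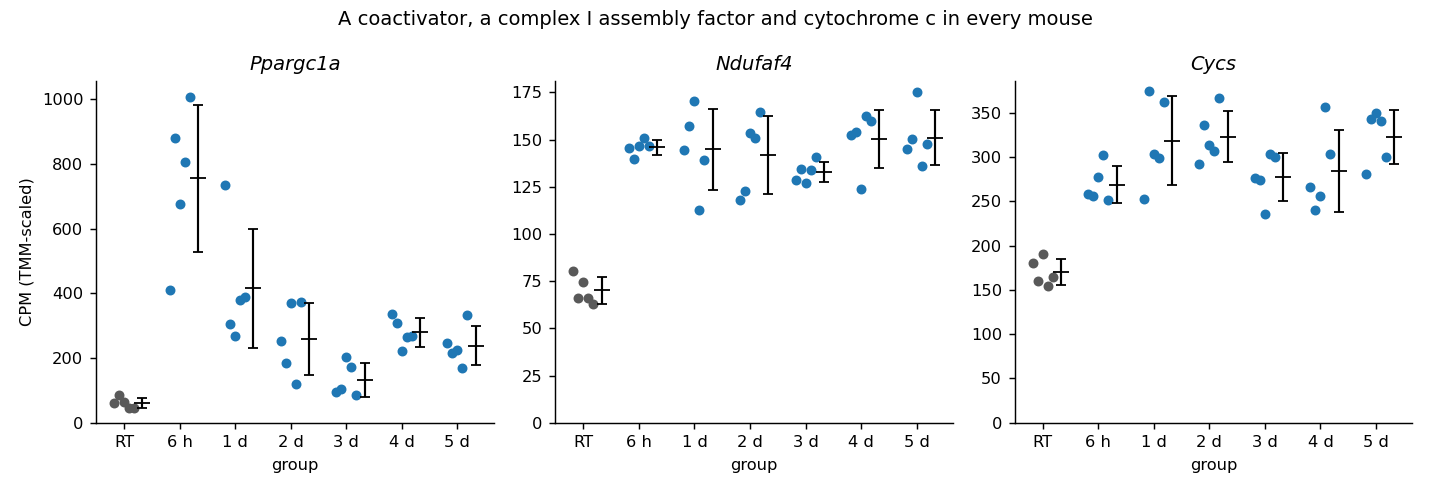
CPM of Ppargc1a, Ndufaf4 and Cycs in every mouse (points), with mean ± SD of each group of 5 (bars), against time at 6 °C. Ppargc1a peaks at a mean of 756 CPM at 6 hours against 60.8 CPM at RT, while Ndufaf4 (146 CPM at 6 hours against 70.1 CPM) and Cycs (269 against 170.1 CPM) rise by 6 hours and stay up.

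Assembly factors guide subunits into each complex. Of 20 complex IV assembly genes tested, 6 were higher and 1 lower after 6 hours and 14 and 1 after 5 days, with a 5-day median of 0.55 (log2). Cox15, which makes heme a, and Coa6, a copper delivery factor, were higher after 5 days by 1.22 and 1.05 (edgeR adjusted p = 0.00011 and 0.00076). The gene that fell was Cox14, which couples COX1 synthesis to assembly, from 95.4 ± 7.32 CPM at RT to 45.8 ± 8.59 CPM after 5 days (SD, n = 5; −1.07 on the log2 scale, edgeR adjusted p = 3.09e-06), and it was lower at all 6 durations. For complex III, 1 of 6 assembly genes was called after 5 days. This was Uqcc2, needed to make cytochrome b, higher at all durations and by 1.501 after 5 days (edgeR adjusted p = 6.7e-07). For complexes II and V, 3 and 2 of 4 assembly genes were higher after 5 days and 0 were lower. For complex I, 1 of the 8 assembly genes outside the name rule was higher after 5 days (Timmdc1, 0.72) and 0 were lower. After 6 hours, 1 of these 8 was higher and 2 were lower. At that time the counts were 0 and 2 for complex II, 2 and 2 for complex III, and 1 and 0 for complex V.

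Of 13 coenzyme Q synthesis genes, 2 were higher and 4 lower after 6 hours and 5 and 1 after 5 days. Pdss1, which makes the side chain of coenzyme Q, was higher at all durations (1.31 after 6 hours, edgeR adjusted p = 0.000109). Coq8a, a regulator of this pathway, fell most, from 407 ± 86.6 to 54.8 ± 10.6 CPM after 6 hours (SD, n = 5; −2.91 on the log2 scale, edgeR adjusted p = 4.89e-10), and Coq10b rose by 1.60 at that time and by 0.41 after 2 days. Of the mitochondrially encoded subunits, 6 of 7 for complex I passed the filter, and 3 were higher and 0 lower after 5 days. These were mt-Nd1, mt-Nd3 and mt-Nd6 (1.00, 1.90 and 1.13). mt-Nd4 was called lower after 1, 3 and 4 days (−0.32, −0.81 and −0.69), from a mean of 29987 CPM at RT to 16952 CPM after 3 days. Cytochrome b (mt-Cytb), the mitochondrially encoded partner of the rising complex III subunits, was called lower after 3 and 4 days (−0.85 and −0.69) and not called after 5 days (−0.28). Of the complex IV genes, mt-Co1, at a mean of 7357 CPM at RT, was higher after 6 hours and 1 day (0.59 and 0.83). Neither mt-Co2 and mt-Co3 of complex IV nor mt-Atp6 and mt-Atp8 of complex V passed the filter. Their RT means were 0.42, 0.15, 0.12 and 0.35 CPM, and why these were so low was not tested. Polyadenylation of mitochondrial transcripts differs from that of nuclear ones, so levels of the 2 kinds are not compared.

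What the promoters of members share was described without a test. Of 94 symbols, 74 matched a RefSeq promoter of 250 bases before to 50 bases after the start, among 27025 genes. The NRF1 motif in its 10-base form stood in 25.7% of members (19) and 5.19% of all genes, and its 8-base core CGCATGCG in 14.9% and 2.07%. The YY1 letters AAGATGGC stood in 13.5% and 3.19%, the GABP letters CCGGAAG in 24.3% and 9.93%, and their longer form CCGGAAGT in 6.76% and 4.31%. For the ERR letters TCAAGGTCA the shares were 2.7% and 0.466%, and for the shorter NAAGGTCA 10.8% and 5.36%. The CREB letters TGACGTCA stood in 5.41% and 2.03%, and the shorter TGACGT in 10.8% and 8.37%. Both strands were searched, and the longer and shorter forms overlap. The NRF1 motif stood in 6 of 13 complex V promoters, 7 of 32 for complex I and 1 of 13 for complex IV, and in 1 of the 5 complex III promoters found.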

How the data were processed

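Total RNA of iBAT from 35 mice was sequenced as 3′-end libraries on the QuantSeq forward kit. The authors aligned reads with STAR 2.6.1d to the mouse genome GRCm38 and deposited raw counts per gene from HTSeq 0.11.2; the strand setting used in counting is not given in the sources used here. The counts were tested as deposited. Each cold duration was compared with RT in its own fit of 5 against 5 mice, and 1 day and 5 days with 6 hours, by edgeR 4.0.16 (R 4.3.3; TMM factors, filterByExpr, quasi-likelihood test) over all genes, and calls had a Benjamini-Hochberg adjusted p below 0.05. An F test over all 35 mice gave the course. CPM were scaled once over the 35 libraries. Isoform ratios were log2 ratios of counts with 0.5 added, tested by exact permutation. Marker relations used log2(CPM + 1) in Python 3.11.15. The alternatives included DESeq2 1.42.0, other scalings, no filter, a replicate block and each mouse left out. Scripts were tested on simulated data. Symbols came from the GENCODE annotation of GRCm38, and 267 of 55421 identifiers had none.

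Named genes were the isoform pairs; the highest member of each complex; the largest rise and fall per complex at 6 hours, 1 day and 5 days among calls with a mean of at least 50 counts; calls opposite to most of their complex; members placed outside the complex of their symbol or not tested; and the 2 largest changes of other lists. All other members given with values (Uqcrc2, Uqcrc1, Uqcrb, Uqcrq, Uqcr10, Cyc1, Cox5a, Cox6b2, Atp5a1, Atp5f1, Atp5e, Atp5s, Atp5g1, the other complex I and II subunits and the assembly factors among them) lie outside this rule and were picked after their values were seen. Members and lists were chosen with earlier results of these data known. Replicate numbers name different mice, and the spread between mice is what the p-values measure. Depth was 3846016 to 6047247 counts, and the count of a gene limits its precision.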

Additional observations from a re-analysis of the deposited data

Results flagged for a closer look

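In 8 of the 245 groups of 5 mice examined for single distant values, the gap between an extreme mouse and its nearest neighbour was over 0.71 of the group's range; chance gives about 1 in 20. Sdhd was at 26.4 CPM in 1-day mouse 4. Uqcrfs1 was at 281 CPM in 1-day mouse 4 and at 275 CPM in 2-day mouse 1. Cox7a2 was at 1184 CPM in 6-hour mouse 3. Atp5b was at 1896 CPM in RT mouse 3 and at 1352 CPM in 2-day mouse 1. Atp5g3 was at 347 CPM in 6-hour mouse 5, and Ndufaf4 at 124 CPM in 4-day mouse 3. The 2-day mouse 1, which had the lowest Uqcrfs1 and Atp5b of its group, also had the group's highest summed macrophage markers, 489.9 CPM. Its library had the lowest mitochondrial share of the group, 34.6%, and the highest Gm42418 share, 15.8%. The part of these in its values was not tested.

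Cold durations differed from each other in direct tests (edgeR's quasi-likelihood test, 5 mice a group). At 1 day against 6 hours, the log2 differences were 0.33 for Ndufa12, −0.43 for Ndufa7, −0.51 for Ndufb3, −0.51 for Cox8b, −0.28 for Atp5c1 and 0.36 for Atp5mpl. Of the 10 fits without 1 mouse, the call was lost in 9 for Atp5c1, 5 each for Ndufa12 and Ndufb3, 3 for Atp5mpl and 2 for Ndufa7. At 5 days against 6 hours, the rises were 0.26 for Ndufa12, 0.57 for Ndufs3, 0.60 for Ndufs5, 0.27 for Sdhb, 0.69 for Uqcrfs1, 0.90 for Cox7a1, 0.40 for Atp5b, 0.35 for Atp5g3 and 0.66 for Atp5mpl. The falls were −0.34 for Ndufc2, −0.34 for Uqcr11 and −0.30 for Cox6c. In this comparison the call was lost in 7 of 10 such fits each for Ndufa12 and Sdhb, 6 for Cox6c and 2 for Ndufc2.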

How the results depend on the processing

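With library size only, members higher and lower were 1 and 27 at 6 hours, 6 and 35 at 1 day, 8 and 30 at 2 days, 9 and 29 at 3 days and 15 and 16 at 5 days, with 16 lower at 4 days and 5 lower at 5 days against 6 hours. Leaving mitochondrial genes and Gm42418 out of the library size gave 4 and 15 at 6 hours, 7 and 24 at 1 day and 21 and 14 at 5 days, and 18, 22 and 6 lower at 2 days, 3 days and 5 days against 6 hours. Of all genes, that scaling called 16.1% higher and 26.5% lower at 6 hours, 13.6% and 25.1% at 1 day, and 13.8% and 27.9% at 5 days. The lower shares of all genes were 20.1% at 2 days, 18.6% at 3 days and 20.7% at 5 days against 6 hours. Cox6a1 at 2 days turned to −0.23 with library size only. Without a filter, 4 were lower at 5 days. The replicate block gave 3 lower at 2 days, 1 higher and 2 lower at 1 day against 6 hours, and 54 of 91 over the course against 55; mice with the same number did not deviate together (median r −0.01 over 105 pairs, 0.00 over 420 others), so the numbers were not taken to pair mice.

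With each mouse left out in turn, higher and lower counts ranged from 5 to 13 and 3 to 6 at 6 hours, 7 to 13 and 8 to 11 at 1 day, 11 to 29 and 3 to 8 at 2 days, 11 to 20 and 10 to 15 at 3 days, 21 to 30 and 6 to 11 at 4 days, 25 to 44 and 4 to 6 at 5 days, 0 to 3 and 2 to 4 at 1 day against 6 hours, and 22 to 32 and 1 to 4 at 5 days against 6 hours. The higher count was 29 without 2-day mouse 1, 7 without RT mouse 4 or 1-day mouse 3, and at 6 hours 6 without RT mouse 4 or 5 and 5 without 6-hour mouse 3 or 4. The lower count was 3 at 6 hours without RT mouse 3, 3 at 2 days without RT mouse 1, 2, 3 or 5 or 2-day mouse 2, 3 or 5, 8 without 2-day mouse 4, 6 at 4 days without 4-day mouse 1, 2 or 3, 4 at 5 days without RT mouse 1 or 5-day mouse 1, 2 or 5, and 1 at 5 days against 6 hours without 5-day mouse 2. At 1 day against 6 hours, 0 were higher without 6-hour mouse 1 or 2 or 1-day mouse 2, and 2 lower without 6-hour mouse 3 or 5 or 1-day mouse 1, 2, 4 or 5. Of 105 calls on named genes, 30 were lost without some mouse. The causes were not tested, and the shares of all genes called in these fits are not given here. Genes with few counts, such as Cox6b2 and Atp5s, are limited by depth.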
